A study of Homo sapiens with 9 samples.

Results

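The genes described here encode enzymes of cholesterol synthesis, proteins that control the sterol regulatory element-binding proteins (SREBPs), and carriers of cholesterol inside the cell. There were 29 of them, listed by name for these roles at a time when earlier results of these data were known, and all 29 were among the 60676 genes of the count table and among the 15500 that had enough fragments to be tested. They comprised 19 enzymes, 7 genes of SREBP control and 3 of sterol transport.

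RNA was sequenced in A549 cells, an established epithelial line of human lung adenocarcinoma, grown in medium with fetal bovine serum. The cells carried 1 of 3 lentiviral short hairpin RNAs (shRNAs): shLITATS1-1 or shLITATS1-2, both directed at LITATS1, a long noncoding RNA, or shNT, which targets no gene. All groups, the control included, were transduced, cultured for 2 days, and then selected with puromycin (1 ng/mL) for 3 days before RNA was taken. Each group held 3 libraries, labelled as numbered replicates. Since the labels do not say whether the 3 were separate transductions, p-values cover the spread between these libraries alone, which may be technical. A hairpin can also act on RNAs other than its target, and this design has no rescue group that would separate such effects, so results carried by both hairpins are given apart from those of a single hairpin.

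Cells build cholesterol from acetyl-CoA. The mevalonate arm makes isoprenoid units, these are joined to squalene, squalene is closed to lanosterol, and a chain of further enzymes turns lanosterol into cholesterol. Many of these genes are transcribed under the SREBPs, above all SREBP-2. When membranes hold ample sterol, the SREBP escort SCAP is kept in the endoplasmic reticulum by INSIG proteins, and when sterol is low it carries the SREBP to the Golgi, where the site-1 and site-2 proteases release the active factor.

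Libraries held 24556848 to 24671296 fragments each. Genes received 19610514 to 19989652 of these, and the 29 genes 33977 to 46548. LITATS1 itself stood at 3.79, 3.21 and 3.00 CPM (fragment counts scaled to a common depth with TMM factors, the trimmed mean of M-values) with shLITATS1-1 and at 3.33, 3.03 and 2.69 CPM with shLITATS1-2, against 14.04, 14.5 and 16.9 CPM with shNT. Of 8 epithelial markers, 7 averaged at least 1 CPM in every group, with KRT8 the highest in each, and CLDN7 was near 0. Of 7 markers of alveolar type 2 cells, SFTPC, SFTPB, SFTPA1 and NKX2-1 averaged under 0.2 CPM in every group. ABCA3 averaged 106 CPM with shLITATS1-1 and 91.7 CPM with shLITATS1-2, against 89.5 CPM with shNT. NAPSA averaged 1.14, 0.658 and 0.530 CPM and LAMP3 0.930, 0.915 and 0.376 CPM in the same order. All 3 of these were called higher with shLITATS1-1, at 0.25 for ABCA3, 1.098 for NAPSA and 1.29 for LAMP3 on the log2 scale, and LAMP3 also with shLITATS1-2, at 1.27. Of 6 fibroblast, 6 immune and 5 endothelial markers, those at 1 CPM or more in any group were LUM and CD14. The summed level of the fibroblast list was 4.48 to 4.80 CPM with shLITATS1-1 and 0.963 to 1.63 CPM with shLITATS1-2, against 0.819 to 1.18 CPM with shNT, and COL1A2, DCN and PTPRC were at or near 0 throughout. The immune list summed to 1.89 to 3.06, 5.05 to 6.09 and 1.23 to 1.64 CPM in the same order, and the endothelial list to 0.736 to 0.948, 0.676 to 1.06 and 0.410 to 1.02 CPM. The part of these markers in the results was not tested. Fragments of mitochondrially encoded genes made up 10.2% ± 0.125 (SD, n = 3) of gene fragments with shLITATS1-1 and 7.97% ± 0.235 with shLITATS1-2, against 12.2% ± 0.226 with shNT.

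The cholesterol synthesis enzymes fell together with both hairpins. With shLITATS1-1 all 19 enzymes were lower than with shNT, and with shLITATS1-2 17 were lower, PMVK and CYP51A1 not passing. Many genes changed in these cells: 61% of all tested genes were called with shLITATS1-1 and 56.7% with shLITATS1-2. In the whole test 30.5% of genes were called lower with shLITATS1-1 and 28.9% with shLITATS1-2 (quasi-likelihood F-tests of edgeR, with Benjamini-Hochberg adjustment over all tested genes and a threshold of 0.05). Of the 19 enzymes, 17 were called lower with both hairpins, as were 16% of all genes tested. Both hairpins are set against the same shNT libraries, so these counts are not independent of each other. The enzymes' median log2 fold change was -0.60 with shLITATS1-1 and -0.60 with shLITATS1-2, against medians of -0.01 and -0.00 over all tested genes. No enzyme was called higher with either hairpin.

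The 19 enzymes together amounted to 839, 837 and 843 CPM with shLITATS1-1 and to 781, 764 and 758 CPM with shLITATS1-2, against 1297, 1274 and 1291 CPM with shNT. The 6 hairpin libraries all lay below the 3 control libraries, at 65.2% ± 0.242 (SD, n = 3) of the shNT mean with shLITATS1-1 and 59.6% ± 0.909 with shLITATS1-2. Within these sums, LBR alone averaged 76.4 CPM with shLITATS1-1 and 30.5 CPM with shLITATS1-2, against 103 CPM with shNT. In bulk RNA, fewer cells that express a gene and less of its RNA per cell cannot be told apart. The share of mitochondrial fragments moved alongside, as did that of fragments not aligned, which was 5.54% to 5.57% with shLITATS1-1 and 5.39% to 5.50% with shLITATS1-2, against 3.66% to 3.86% with shNT. The part of mitochondrial or unaligned fragments in the result was not tested. With mitochondrially encoded genes left out of the fit, the counts of lower enzymes were again 19 and 17, with medians of -0.59 and -0.59. That fit removes only the fragments of those genes, so it cannot decide what goes with the difference in their share. Scaled by library size alone, which shifted the median of all genes with shLITATS1-2 to 0.11 and its calls to 6058 higher and 2967 lower in place of 4302 and 4485, 17 enzymes were still lower with that hairpin, with a median of -0.49.

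**Figure D1:**
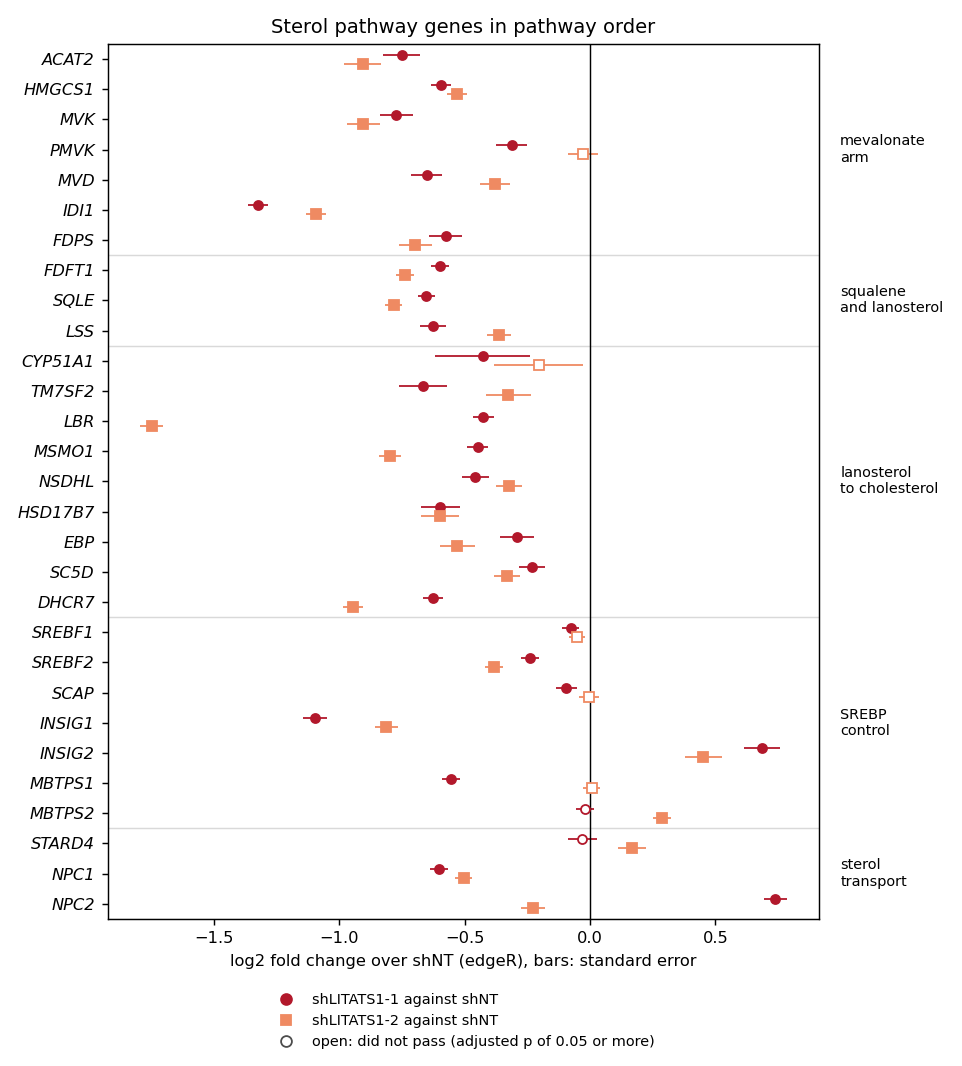
Log2 fold changes over shNT of the 29 genes in pathway order, with standard errors; circles are shLITATS1-1, squares shLITATS1-2, and open symbols did not pass the test. The 19 enzymes lie left of 0 with both hairpins, while INSIG2 lies right of 0 with both and NPC2 lies on either side.

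In the mevalonate arm, all 7 genes fell with shLITATS1-1 and 6 fell with shLITATS1-2. The gene of this arm most reduced with both was IDI1 (ENSG00000067064, chromosome 10), whose product converts isopentenyl diphosphate to dimethylallyl diphosphate. IDI1 stood at 53.3, 53.3 and 54.0 CPM with shLITATS1-1 and at 61.3, 65.0 and 62.4 CPM with shLITATS1-2, against 137, 131 and 134 CPM with shNT. Its levels with the hairpins were thus under 50% of those with shNT in each library, with no overlap. The log2 fold changes were -1.33 (SE 0.0400, adjusted p = 2.34e-41) and -1.09 (SE 0.0386, adjusted p = 3.77e-37) in edgeR. Of all genes tested, 0.910% had a lower log2 fold change with shLITATS1-1 and 1.68% with shLITATS1-2.

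ACAT2, the cytosolic thiolase that joins acetyl-CoA units, stood at 14.3, 12.9 and 15.7 CPM with shLITATS1-1 and at 11.9, 13.4 and 13.1 CPM with shLITATS1-2, against 24.0, 22.8 and 25.2 CPM with shNT. HMGCS1, the synthase that forms HMG-CoA, stood at 74.6, 74.4 and 74.4 CPM with shLITATS1-1 and at 79.1, 76.7 and 78.1 CPM with shLITATS1-2, against 121, 111 and 106 CPM with shNT. MVK, which phosphorylates mevalonate, stood at 16.0, 16.3 and 16.96 CPM with shLITATS1-1 and at 15.5, 14.6 and 14.8 CPM with shLITATS1-2, against 28.8, 28.1 and 27.1 CPM with shNT. For each of these genes the hairpin libraries lay apart from the control libraries, and the log2 fold changes were -0.75 and -0.91 for ACAT2, -0.60 and -0.53 for HMGCS1 and -0.77 and -0.91 for MVK. FDPS, which makes farnesyl diphosphate, changed by -0.58 and -0.70, and MVD, the decarboxylase that yields isopentenyl diphosphate, by -0.65 and -0.38. PMVK, the kinase between MVK and MVD, was the weakest of the arm. It stood at 24.56, 23.3 and 24.7 CPM with shLITATS1-1 and at 32.1, 28.6 and 27.7 CPM with shLITATS1-2, against 28.1, 31.3 and 30.7 CPM with shNT. It fell by 0.31 on the log2 scale with shLITATS1-1 and was not called with shLITATS1-2 (-0.03, adjusted p = 0.722 in the same edgeR test), where its libraries overlapped those of the control.

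The enzymes that make and close squalene fell with both hairpins. SQLE, squalene epoxidase, had the highest level per exon length of the 29 genes with shNT, at 47.2 CPM per kb. It stood at 127, 129.6 and 131 CPM with shLITATS1-1 and at 116, 117 and 120.1 CPM with shLITATS1-2, against 209, 199 and 201 CPM with shNT, with log2 fold changes of -0.65 (SE 0.0337) and -0.78 (SE 0.0337). FDFT1, squalene synthase, stood at 107, 105 and 109 CPM with shLITATS1-1 and at 103, 96.6 and 92.7 CPM with shLITATS1-2, against 157, 161 and 169 CPM with shNT. Neither gene's hairpin libraries reached the control libraries, and FDFT1 changed by -0.60 and -0.74. LSS, which closes oxidosqualene to lanosterol, stood at 36.4, 35.1 and 33.5 CPM with shLITATS1-1 and at 39.5, 42.8 and 43.8 CPM with shLITATS1-2, against 52.5, 54.8 and 54.9 CPM with shNT. Its log2 fold changes were -0.63 and -0.36.

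From lanosterol onward, 9 of 9 genes fell with shLITATS1-1 and 8 of 9 with shLITATS1-2. DHCR7, the reductase that completes cholesterol from 7-dehydrocholesterol, stood at 87.0, 83.4 and 84.2 CPM with shLITATS1-1 and at 72.1, 68.6 and 63.6 CPM with shLITATS1-2, against 125, 134 and 135 CPM with shNT. The groups lay apart, with log2 fold changes of -0.63 (SE 0.0396) and -0.95 (SE 0.0403). MSMO1, which oxidises methyl groups of the sterol ring, stood at 64.9, 63.9 and 60.2 CPM with shLITATS1-1 and at 50.9, 48.4 and 48.9 CPM with shLITATS1-2, against 88.6, 82.9 and 86.4 CPM with shNT, and changed by -0.45 and -0.80. NSDHL and HSD17B7, a dehydrogenase and a reductase of the same demethylation steps, changed by -0.46 and -0.32 and by -0.60 and -0.60. EBP, a sterol isomerase, changed by -0.29 and -0.53, and SC5D, a sterol desaturase, by -0.23 and -0.33.

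TM7SF2 and LBR encode proteins with the same sterol reductase activity, and LBR is also a receptor for lamin B in the inner nuclear membrane. LBR (ENSG00000143815, chromosome 1) stood at 74.3, 78.7 and 76.2 CPM with shLITATS1-1 and at 28.7, 30.6 and 32.2 CPM with shLITATS1-2, against 108, 101 and 99.2 CPM with shNT. The 3 groups did not overlap, and LBR was lowest by far with shLITATS1-2. The log2 fold changes were -0.43 (SE 0.0412) with shLITATS1-1 and -1.75 (SE 0.0465, adjusted p = 1.53e-44 in edgeR) with shLITATS1-2, where 0.284% of all genes tested had a lower one. TM7SF2 stood at 7.84, 7.54 and 8.11 CPM with shLITATS1-1 and at 9.86, 10.98 and 8.89 CPM with shLITATS1-2, against 11.3, 12.9 and 13.1 CPM with shNT. It changed by -0.67 and -0.33, so the order of the hairpins was the opposite of that for LBR. Per exon length, the LBR level was 6.33 ± 0.377 times that of TM7SF2 with shLITATS1-1 and 2.01 ± 0.292 times with shLITATS1-2, against 5.39 ± 0.694 times with shNT (SD, n = 3 each).

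CYP51A1, the lanosterol demethylase, had the lowest counts of the set, with 1.89, 1.74 and 2.27 CPM with shLITATS1-1 and 1.98, 2.74 and 2.16 CPM with shLITATS1-2, against 2.61, 2.56 and 2.77 CPM with shNT. In GENCODE 29, 83.2% of its exon bases are shared with exons of other genes (79.4% on the same strand), where fragments cannot be assigned to it alone, so its level is uncertain. It fell by 0.43 on the log2 scale with shLITATS1-1 (SE 0.188, adjusted p = 0.0428 in edgeR) and was not called with shLITATS1-2 (-0.21, SE 0.178, adjusted p = 0.337 in the same test). The call with shLITATS1-1 was lost in DESeq2 (adjusted p = 0.129), without a low-count filter (adjusted p = 0.0810 in edgeR) and when any library but shLITATS1-1 replicate 3 of the 6 compared was left out (adjusted p 0.0583 to 0.153 in edgeR). Of ACAT2, 52.3% of exon bases lie under exons on the opposite strand, as do 18.6% of those of FDPS, 14.8% of those of IDI1 and 703 of the 4702 of HMGCS1, and whether counting used strand is not stated. HSD17B7 and FDPS have pseudogene copies, and how fragments shared with these were counted was not examined.

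**Figure D2:**
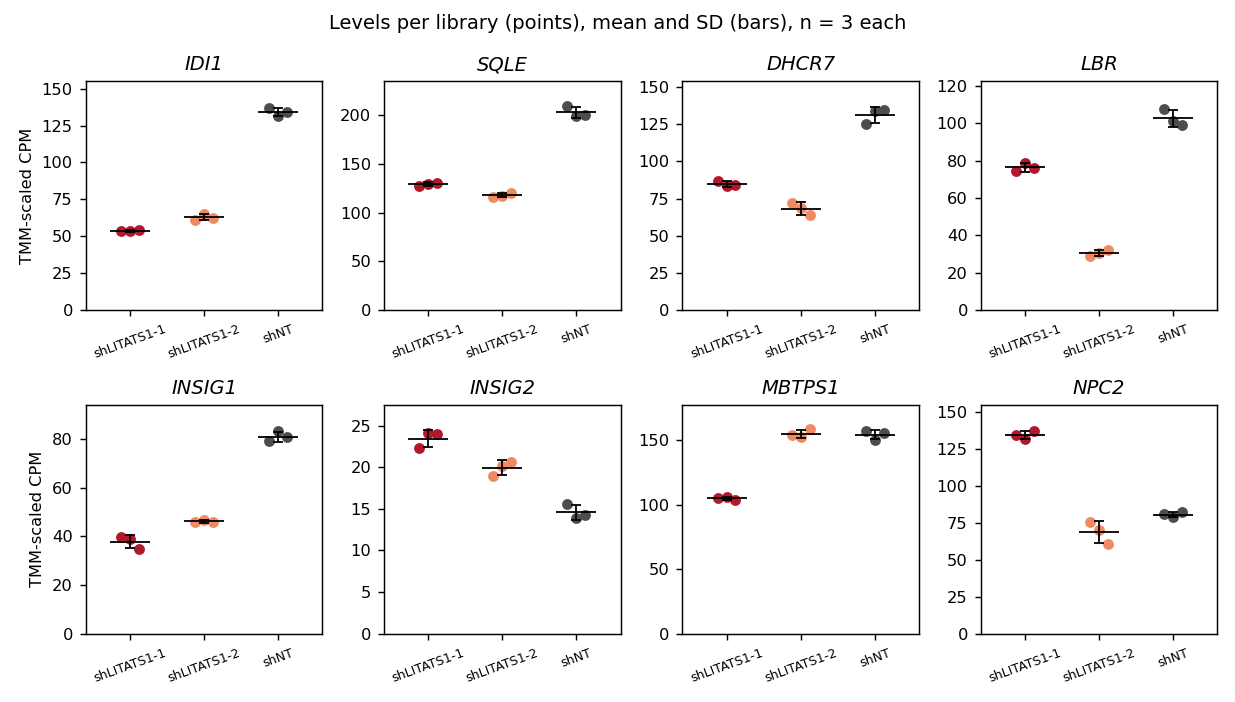
TMM-scaled CPM of 8 genes in each library (points), with group means and SD (bars, n = 3 each) and axes that start at 0. IDI1, SQLE, DHCR7, LBR and INSIG1 are below shNT with both hairpins, INSIG2 is above it with both, MBTPS1 is low with shLITATS1-1 alone, and NPC2 is high with shLITATS1-1 and lowest with shLITATS1-2.

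Among the genes of SREBP control, the INSIG pair moved in opposite directions with both hairpins. INSIG1 (ENSG00000186480, chromosome 7), itself a known SREBP target, stood at 40.0, 38.9 and 34.8 CPM with shLITATS1-1 and at 45.9, 46.6 and 45.9 CPM with shLITATS1-2, against 79.2, 83.2 and 80.9 CPM with shNT. Every hairpin library was below every control library, with log2 fold changes of -1.10 (SE 0.0473, adjusted p = 3.77e-32) and -0.81 (SE 0.0453, adjusted p = 6.79e-26) in edgeR. INSIG2 (ENSG00000125629, chromosome 2), whose transcription does not need SREBPs, stood at 22.2, 24.1 and 24.0 CPM with shLITATS1-1 and at 18.9, 20.2 and 20.7 CPM with shLITATS1-2, against 15.6, 13.9 and 14.2 CPM with shNT. Here every hairpin library was above every control library, with log2 fold changes of 0.69 (SE 0.0710, adjusted p = 1.75e-13) and 0.45 (SE 0.0720, adjusted p = 1.25e-07) in the same test. INSIG2 was the member called higher with both hairpins, as were 15.2% of all genes tested. Per exon length, INSIG1 was 1.76 ± 0.186 times INSIG2 with shLITATS1-1 and 2.51 ± 0.111 times with shLITATS1-2, against 6.05 ± 0.504 times with shNT (SD, n = 3 each).

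SREBF2, which encodes SREBP-2, stood at 129, 121 and 126 CPM with shLITATS1-1 and at 116, 108 and 117 CPM with shLITATS1-2, against 146, 149.9 and 148 CPM with shNT. The hairpin libraries lay below the control libraries, and the gene changed by -0.24 (SE 0.0360) and -0.38 (SE 0.0360). SREBF1, which encodes the SREBP-1 isoforms, stood at 219, 209.8 and 219.8 CPM with shLITATS1-1 and at 227, 218 and 216 CPM with shLITATS1-2, against 219.7, 236 and 229 CPM with shNT. These groups overlapped. SREBF1 fell by 0.08 on the log2 scale with shLITATS1-1 (SE 0.0325, adjusted p = 0.0325 in edgeR) and was not called with shLITATS1-2 (-0.05, SE 0.0322, adjusted p = 0.177 in edgeR). The counts do not separate the SREBF1 isoforms. SCAP, the escort, changed by -0.09 with shLITATS1-1 (adjusted p = 0.0430 in edgeR) and by -0.00 with shLITATS1-2 (adjusted p = 0.942 in edgeR). Both calls with shLITATS1-1 were lost in DESeq2 (adjusted p = 0.0877 for SREBF1 and 0.115 for SCAP). They were also lost without shLITATS1-1 replicate 2, shNT replicate 2 or shNT replicate 3 (edgeR's adjusted p 0.0632 to 0.198 for SREBF1 and 0.0785 to 0.296 for SCAP), and that of SCAP without shLITATS1-1 replicate 1 (adjusted p = 0.0501 in edgeR).

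The proteases differed between the hairpins. MBTPS1, the site-1 protease, stood at 105, 106 and 103 CPM with shLITATS1-1 and at 154, 152 and 158 CPM with shLITATS1-2, against 157, 150.1 and 155 CPM with shNT. Its log2 fold change was -0.56 (SE 0.0352) with shLITATS1-1 and 0.01 (SE 0.0336, adjusted p = 0.878 in edgeR) with shLITATS1-2, or 0.12 (adjusted p = 0.00157) when scaled by library size alone. MBTPS2, the site-2 protease, stood at 119.6, 123 and 127 CPM with shLITATS1-1 and at 150.3, 153 and 154 CPM with shLITATS1-2, against 130.2, 123 and 121 CPM with shNT. It was not called with shLITATS1-1 (-0.02, adjusted p = 0.643 in edgeR) and rose by 0.29 (SE 0.0351) with shLITATS1-2. Both proteases also cleave other membrane-bound factors, such as ATF6.

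IDI1, INSIG1, MVK and DHCR7 were among the members that fell most with each hairpin (ordered by whichever of their log2 fold changes was nearer 0), so the 250 bases before their starts are shown, from RefSeq. SQLE and ACAT2 ranked above DHCR7 in that order. The windows are from GRCh38.p14: IDI1 at chr10:1048887-1049136 on the minus strand, INSIG1 at chr7:155297628-155297877 on the plus strand, MVK at chr12:109573544-109573793 on the plus strand and DHCR7 at chr11:71448394-71448643 on the minus strand. Capitals mark CCAAT, the box bound by NF-Y, a factor known to act beside SREBPs, or its reverse complement ATTGG. Where a gene has several listed starts, the window with the most boxes was taken.
IDI1 promoter: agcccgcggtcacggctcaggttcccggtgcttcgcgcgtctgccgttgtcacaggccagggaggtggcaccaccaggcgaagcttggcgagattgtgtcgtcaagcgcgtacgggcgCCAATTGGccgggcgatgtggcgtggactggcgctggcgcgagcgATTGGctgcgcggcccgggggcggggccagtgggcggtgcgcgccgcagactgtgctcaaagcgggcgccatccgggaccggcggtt
INSIG1 promoter: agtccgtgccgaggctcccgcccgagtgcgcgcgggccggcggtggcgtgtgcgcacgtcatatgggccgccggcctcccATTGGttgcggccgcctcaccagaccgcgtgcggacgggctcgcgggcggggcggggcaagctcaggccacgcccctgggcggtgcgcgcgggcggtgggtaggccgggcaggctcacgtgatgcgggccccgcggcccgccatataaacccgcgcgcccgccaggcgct
MVK promoter: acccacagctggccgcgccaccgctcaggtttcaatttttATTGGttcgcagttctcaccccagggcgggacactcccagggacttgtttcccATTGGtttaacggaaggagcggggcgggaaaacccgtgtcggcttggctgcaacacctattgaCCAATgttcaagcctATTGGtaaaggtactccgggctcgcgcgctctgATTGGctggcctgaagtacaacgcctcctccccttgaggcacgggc
DHCR7 promoter: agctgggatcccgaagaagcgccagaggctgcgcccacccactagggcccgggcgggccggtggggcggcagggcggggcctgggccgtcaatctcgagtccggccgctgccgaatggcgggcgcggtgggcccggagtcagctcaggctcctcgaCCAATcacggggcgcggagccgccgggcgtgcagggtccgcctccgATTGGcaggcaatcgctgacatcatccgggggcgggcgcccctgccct
The IDI1 window held 3 boxes, a pair of which overlap in a palindrome, the INSIG1 window 1, the MVK window 5 and the DHCR7 window 2. The DHCR7 boxes begin 94 and 48 bases before the start. Of the 29 genes, 26 had an entry, 16 of them enzymes with 21 windows in all. A CCAAT box on either strand was found in 15 of these 21 windows (71.4%), against 32.4% of 16411 windows of tested genes. GGGCGG, the box of Sp1, was found in 18 (85.7%), against 62.1%, and the E-box CACGTG in 2 (9.52%), against 8.11%. Over all 33 windows of the 26 genes, 19 (57.6%) held a CCAAT box. TCACNCCAC, a core of the sterol regulatory element searched on both strands, was found in 0 of the 21 windows and in 0.81% of those of tested genes. SREBF2 was the member whose window held it. These are matches of letters only, given without a test, and functional sterol elements vary from this core.

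Sterol transport genes did not move together. NPC1, which exports cholesterol from lysosomes through their membrane, stood at 104, 102 and 98.5 CPM with shLITATS1-1 and at 106, 109 and 111 CPM with shLITATS1-2, against 154, 155 and 154 CPM with shNT. All hairpin libraries were lower, with log2 fold changes of -0.60 (SE 0.0355) and -0.50 (SE 0.0349). NPC2, its soluble partner in the lysosomal lumen, stood at 135, 132 and 137 CPM with shLITATS1-1 and at 75.2, 70.2 and 60.6 CPM with shLITATS1-2, against 80.6, 78.9 and 82.0 CPM with shNT. It rose by 0.74 (SE 0.0448, adjusted p = 1.16e-18) with shLITATS1-1 and fell by 0.23 (SE 0.0478, adjusted p = 6.56e-05) with shLITATS1-2 in edgeR. NPC2 was the member called in opposite directions, as were 9.01% of all genes tested. STARD4, a soluble sterol carrier and known SREBP target, stood at 30.9, 29.1 and 31.3 CPM with shLITATS1-1 and at 37.0, 32.7 and 35.2 CPM with shLITATS1-2, against 30.3, 31.3 and 31.8 CPM with shNT. It was not called with shLITATS1-1 (-0.03, adjusted p = 0.664 in edgeR) and rose by 0.17 (adjusted p = 0.00850 in edgeR) with shLITATS1-2, a call lost without shLITATS1-2 replicate 1 (0.12, adjusted p = 0.0832 in edgeR).

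Over all 29 genes, 2 were higher and 25 lower with shLITATS1-1, and 3 were higher and 21 lower with shLITATS1-2, or 5 and 21 under library-size scaling. Among all genes 30.5% were higher with shLITATS1-1 and 27.8% with shLITATS1-2. NPC2 was higher with shLITATS1-1 and lower with shLITATS1-2, as 5.21% of all genes were, no member showed the reverse (3.81% of all genes), and none was called with neither hairpin (22.6%). The libraries of the groups compared did not overlap for 26 of the 29 genes with shLITATS1-1 (24 lower and 2 higher) and for 24 with shLITATS1-2 (21 lower and 3 higher). Over all genes tested, these shares were 64.2% (32% lower and 32.2% higher) and 59.6% (30.2% lower and 29.4% higher). Of the 19 enzymes, 12 had a log2 fold change of -0.5 or lower with shLITATS1-1 and 12 with shLITATS1-2. The share of all tested genes at that cutoff was not counted, so these 2 counts have no background beside them.

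The direct comparison asks where the hairpins differ. Of the 29 genes, 9 were higher and 11 lower with shLITATS1-1 than with shLITATS1-2, 20 in all, against 30.2%, 30.7% and 60.9% of all genes tested. The libraries of the hairpins did not overlap for 11 genes in the higher and 12 in the lower direction, against 31.7% and 32.5% of all genes. Under library-size scaling 4 were higher and 14 lower, while the calls over all 15500 genes tilted the same way, with 3293 higher and 6912 lower and a median of -0.15. Among the enzymes, 6 were higher and 6 lower with shLITATS1-1, and 7 did not pass. The largest differences were those of LBR, at 1.32 (SE 0.0483, shLITATS1-1 over shLITATS1-2), and NPC2, at 0.97 (SE 0.0453), with adjusted p = 2.11e-36 and 1.41e-22 in edgeR. MBTPS1 was lower with shLITATS1-1 by 0.56 (-0.56, SE 0.0350) and MBTPS2 by 0.31 (-0.31, SE 0.0352).

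Along the pathway the differences went in both directions. The 6 higher and 6 lower of 19 enzymes were near the shares of all genes tested, 30.2% and 30.7%. MSMO1 (0.35, SE 0.0452), DHCR7 (0.32, SE 0.0423) and EBP (0.24, SE 0.0721) were higher with shLITATS1-1 than with shLITATS1-2, so their fall against shNT was smaller with shLITATS1-1. TM7SF2 (-0.34, SE 0.0984), PMVK (-0.29, SE 0.0622), MVD (-0.27, SE 0.0651), LSS (-0.26, SE 0.0528) and IDI1 (-0.23, SE 0.0432) were lower with shLITATS1-1. FDFT1 (0.14) and SQLE (0.13) were called higher, but under library-size scaling they stood at 0.01 and -0.00 and did not pass. The calls of EBP, SREBF2 and INSIG2 were likewise lost under that scaling, at 0.11, 0.01 and 0.10, while HMGCS1 (-0.20), SREBF1 (-0.16) and SCAP (-0.22) passed under it. NSDHL (-0.13, adjusted p = 0.0280 in edgeR) was not called in DESeq2 (adjusted p = 0.0888), nor without shLITATS1-1 replicate 1 or replicate 3 or shLITATS1-2 replicate 1 (edgeR's adjusted p 0.0563 to 0.349). NPC1 (-0.10, adjusted p = 0.0160 in edgeR) was not called without shLITATS1-1 replicate 3 or shLITATS1-2 replicate 3 (edgeR's adjusted p 0.119 and 0.0679). HSD17B7 (0.00, SE 0.0825), HMGCS1 (-0.07, SE 0.0422), FDPS (0.12, SE 0.0709), MVK (0.13, SE 0.0730) and ACAT2 (0.16, SE 0.0814) did not pass with TMM scaling, which does not show that they were equal.

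**Figure D3:**
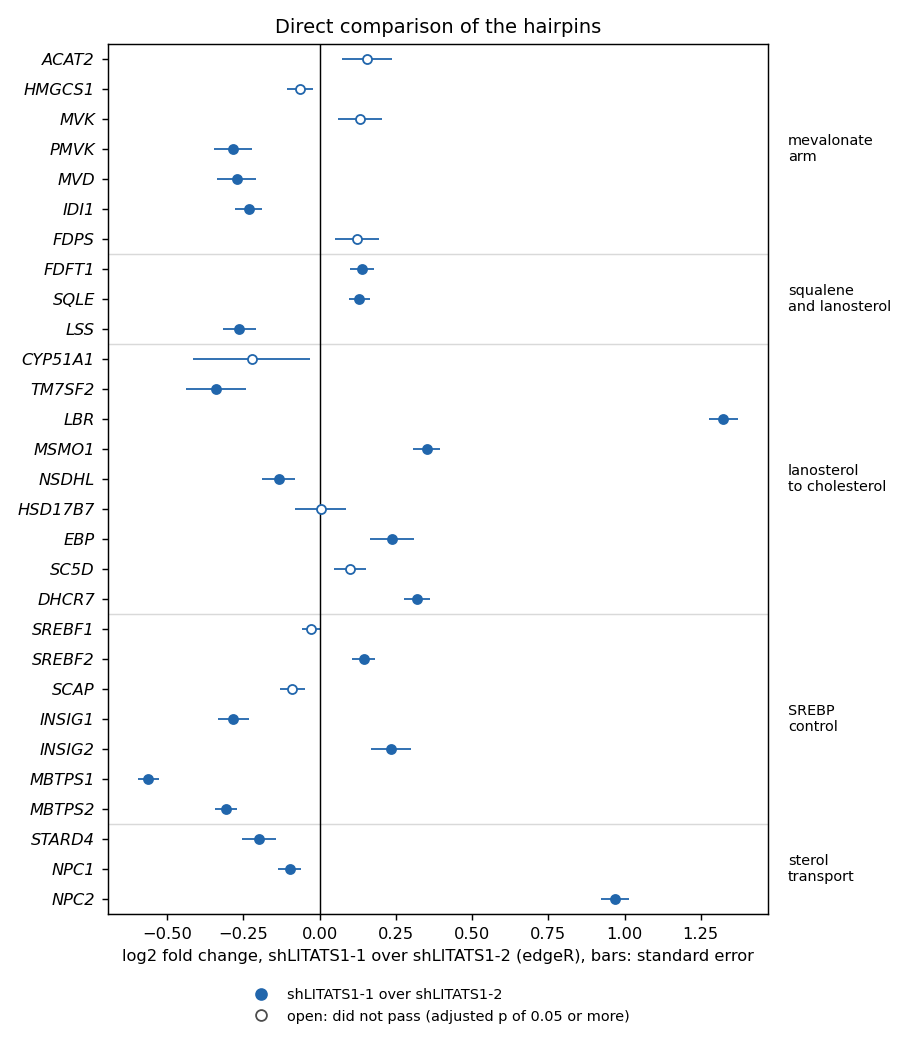
Log2 fold changes of shLITATS1-1 over shLITATS1-2 for the 29 genes in pathway order, with standard errors; open symbols did not pass the test. LBR and NPC2 stand far to the right and MBTPS1 to the left, while most enzymes lie within 0.35 of 0 on either side.

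Genes next to the sterol pathway were described with 5 lists, whose counts are to be read beside those of all tested genes. Of these, 30.5% were higher and 30.5% lower with shLITATS1-1, and 27.8% and 28.9% with shLITATS1-2. Of 13 genes of fatty acid synthesis, which SREBP-1 is known to drive, 4 were higher and 6 lower with shLITATS1-1 (median -0.05), and 1 was higher and 9 lower with shLITATS1-2 (median -0.38), or 3 and 8 under library-size scaling. The desaturase genes FADS2 and FADS1 fell by 0.65 and 0.56 on the log2 scale with shLITATS1-1 and by 0.97 and 1.015 with shLITATS1-2. FADS2 averaged 463 ± 2.87 CPM with shLITATS1-1 and 372 ± 5.79 CPM with shLITATS1-2, against 727 ± 7.97 CPM with shNT (SD, n = 3 each). SCD, the stearoyl-CoA desaturase, averaged 1923 ± 50.3, 1284 ± 21.8 and 2573 ± 55.8 CPM in the same order, and changed by -0.42 and -1.003. LPIN1, a phosphatidate phosphatase, changed by -0.49 and -0.51. ACLY, which supplies the cytosol with acetyl-CoA and was picked with its values in view, moved in opposite directions. It averaged 1152 ± 35.0 CPM with shLITATS1-1 and 616 ± 7.72 CPM with shLITATS1-2, against 822 ± 10.1 CPM with shNT (SD, n = 3 each), with log2 fold changes of 0.49 and -0.42.

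The branches that use isoprenoid units for purposes other than sterols went both ways, as did all tested genes. Of 15 such genes, 4 were higher and 7 lower with shLITATS1-1 (median -0.11) and 4 higher and 6 lower with shLITATS1-2 (median -0.05), or 5 and 5 (median 0.06) under library-size scaling. FNTB, the farnesyltransferase beta subunit, changed by -0.32 and -0.38, COQ2, of ubiquinone synthesis, by -0.95 and -0.31, and PDSS1, which makes the ubiquinone side chain, by -0.41 and -0.29. NUS1, of dolichol synthesis, changed by -0.32 with shLITATS1-1 and by 0.39 with shLITATS1-2.

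A list of 12 genes whose products act on sterol-pathway proteins at the endoplasmic reticulum or Golgi had 6 higher and 4 lower with shLITATS1-1 (median 0.07). It had 2 higher and 6 lower with shLITATS1-2 (median -0.08), or 5 and 3 (median 0.03) under library-size scaling. SPRING1, needed for SREBP cleavage by the site-1 protease, rose by 0.37 and 0.39. RNF139, a ubiquitin ligase of the endoplasmic reticulum, rose by 0.19 and 0.28. UBE2J2, a ubiquitin-conjugating enzyme, changed by -0.31 and -0.17, and ERLIN2, a scaffold protein of that membrane, by 0.17 and -0.20. The last value of each did not pass under library-size scaling, at -0.06 and -0.09.

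**Figure D4:**
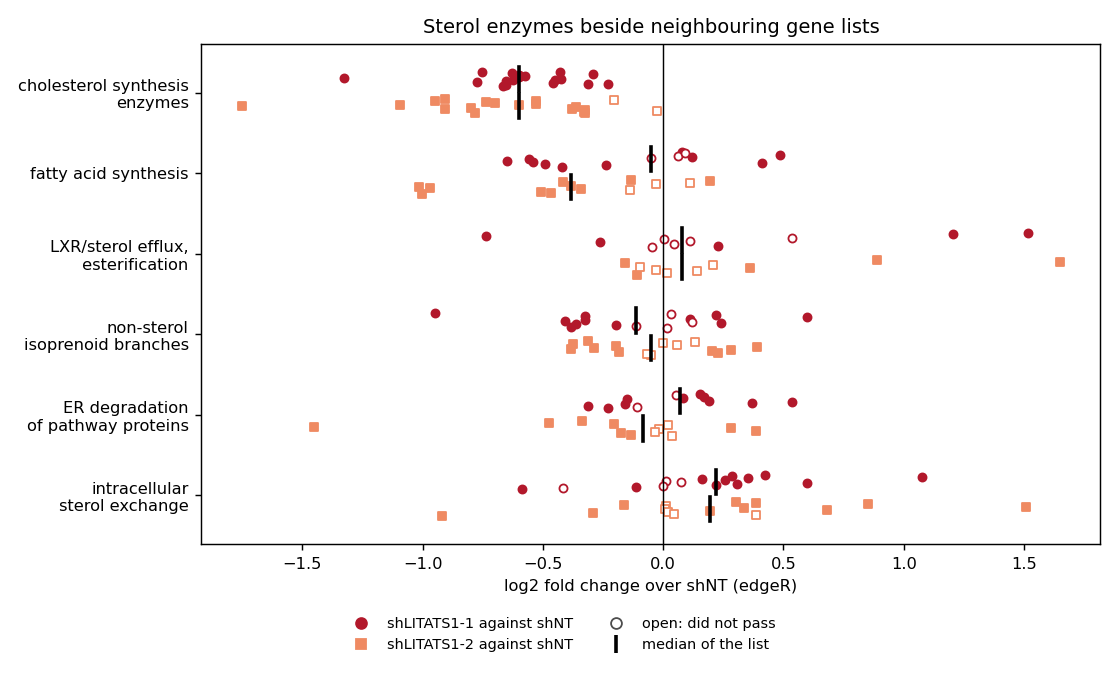
Log2 fold changes over shNT of the 19 cholesterol synthesis enzymes and of the tested genes of 5 neighbouring lists (circles shLITATS1-1, squares shLITATS1-2, open symbols did not pass, black lines list medians). The enzymes lie left of 0 with medians of -0.60 for both hairpins, and each other list holds genes on either side of 0. Fatty acid synthesis lies mostly left with shLITATS1-2 (11 of 13, median -0.38). Sterol exchange lies mostly right with each hairpin (12 of 15, medians 0.22 and 0.20).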

How the data were processed

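RNA sequencing counts of 9 libraries (3 groups of 3) were used. The authors deposited 1 table of unnormalized counts of fragments per gene. GRCh38, HTSeq 0.12.4, STAR 2.7.5a, cutadapt 2.10 and FastQC are named in the submitters' processing notes. Annotation release and strand setting: not given in the sources used here. Counter lines that name no gene, 18.97% to 20.26% of fragments per library, were left out. Genes were kept by filterByExpr (minimum count of 10) and fitted together with edgeR 4.0.16 in R 4.3.3 (TMM, robust quasi-likelihood, 6 residual degrees of freedom, two-sided, Benjamini-Hochberg over 15500 genes, threshold 0.05). Standard errors are the log2 fold change divided by the root of the F statistic. Replicates of a group differed by more than sampling noise (chi-square per degree of freedom 1.47 to 2.72), so none was counted as a copy. The procedure was tested on simulated data. Symbols came from a table of gene identifiers, exon lengths and overlaps from GENCODE 29 and promoter windows from RefSeq. Named genes are all 29 members, LITATS1 and up to 4 genes per other list. Genes called with both hairpins, in the same or opposite directions, came first, by their smaller absolute log2 fold change. Places left over went to the largest absolute change with either hairpin, called or not. ACLY, MYLIP and LPCAT3 were added after their values were seen. Members and lists were chosen with earlier results of these data known. Alternatives were DESeq2 1.42.0, other scalings and filters, a replicate block, fits of 6 libraries, a threshold of 0.01, omission of mitochondrially encoded genes, and omission of each library.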

Additional observations from a re-analysis of the deposited data

Results flagged for a closer look

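The change against shNT differed between the hairpins for 20 of the 29 genes by the direct test of shLITATS1-1 against shLITATS1-2, as 60.9% of all genes tested did. NPC2 was called higher with shLITATS1-1 and lower with shLITATS1-2, and the difference between the hairpins was 0.97 on the log2 scale (edgeR's quasi-likelihood test, adjusted p = 1.41e-22).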

How the results depend on the processing

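The count of lower enzymes was 18 to 19 with shLITATS1-1 and 17 with shLITATS1-2 over all alternatives, and leaving out each library in turn gave the same ranges. For all 29 genes, leave-one-out counts ran from 22 to 25 lower and 2 higher with shLITATS1-1, and were 21 lower and 2 to 3 higher with shLITATS1-2. Between the hairpins they ran from 9 to 10 higher and 10 to 12 lower. Under library-size scaling, 5 genes were higher with shLITATS1-2 and 4 were higher with shLITATS1-1 than with shLITATS1-2. That scaling turned the sign of PMVK (0.086), SREBF1 (0.062) and SCAP (0.11, adjusted p = 0.0173 in edgeR) with shLITATS1-2, and of FDPS (-0.0083), SQLE (-0.00057), HSD17B7 (-0.13) and SC5D (-0.032) between the hairpins. SCAP also turned with a minimum count of 50 (0.014) and without mitochondrially encoded genes (0.0044), and HSD17B7 with no filter (-0.0015), a minimum count of 50 (-0.0042) and without mitochondrially encoded genes (-0.0032). Leaving out each library, values whose sign turned ran from -0.044 to 0.015 for MBTPS2 with shLITATS1-1, from -0.093 to 0.014 for PMVK, from -0.012 to 0.0047 for SCAP and from -0.014 to 0.026 for MBTPS1 with shLITATS1-2, and from -0.063 to 0.047 for HSD17B7 between the hairpins. The replicate numbers did not pair the libraries: deviations of same-numbered libraries correlated at -0.0612 to 0.0355, and 1 of 9 libraries correlated best with its own number. With the replicate block, 4643 genes were higher and 4652 lower with shLITATS1-1, and SREBF1 (-0.08, adjusted p = 0.0530 in edgeR) and SCAP (-0.09, adjusted p = 0.0571 in edgeR) were not called. The cause of these changes was not tested. Low counts limit CYP51A1 most.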

Other observations

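Of 10 tested genes of liver X receptor (LXR) response, sterol efflux or esterification, 3 were higher and 2 lower with each hairpin, or 5 and 0 with shLITATS1-2 under library-size scaling. Among all genes tested, 30.5% were higher and 30.5% lower with shLITATS1-1, and 27.8% and 28.9% with shLITATS1-2. The cholesterol exporter gene ABCA1 averaged 93.2 ± 4.72 CPM with shLITATS1-1 and 60.3 ± 2.28 CPM with shLITATS1-2, against 32.6 ± 2.84 CPM with shNT (SD, n = 3 each), with log2 fold changes of 1.52 (SE 0.0496) and 0.89 (SE 0.0519). ABCG1, another exporter, averaged 10.6 ± 0.623, 14.4 ± 0.151 and 4.58 ± 0.441 CPM in the same order and rose by 1.20 and 1.65. Both genes are textbook targets of the LXRs. The median of the whole list, efflux and esterification genes included, was 0.08 with each hairpin, or 0.19 with shLITATS1-2 under library-size scaling. MYLIP, also in this list, changed by 0.11 (not called) and 0.36. LPCAT3 changed by 0.00 and -0.10 and was called with neither hairpin. A part of the LXRs in these changes was not tested. ABCG2, a drug and urate exporter, changed by -0.73 and -0.16, the last not called under library-size scaling (-0.05). CH25H, which makes 25-hydroxycholesterol, did not pass with either hairpin (0.54 and 0.21).

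Of 15 genes of sterol exchange inside the cell, 9 were higher and 2 lower with shLITATS1-1 (median 0.22) and 7 higher and 3 lower with shLITATS1-2 (median 0.20), or 10 and 2 under library-size scaling. The shares of all genes tested were those given for the LXR list. GRAMD1A, which carries cholesterol from the plasma membrane to the endoplasmic reticulum, rose by 0.42 and 0.30. Its relative GRAMD1C rose by 1.08 and 0.85 at levels near 1 CPM or below, and OSBPL5, an oxysterol-binding protein relative, rose by 0.60 and 0.68. TMEM97, a sterol-responsive regulator of NPC1, fell by 0.59 and 0.92.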
